A study of Mus musculus with 4 samples.

Results

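Sst-like interneurons were taken as the 300 nuclei with the highest score over 5 marker genes, Sst, Elfn1, Crhbp, Trhde and Unc13c, in single-nucleus RNA counts from mouse medial prefrontal cortex. The score was the mean over these genes of the natural log of 1 plus UMIs per 10000. A UMI is a molecular tag that counts 1 captured RNA molecule. The 300 were drawn from 3044 nuclei with at least 3 UMIs in Gad1, Gad2 and Erbb4 together, here called the GABAergic rule, out of 13270 nuclei kept and 22402 barcodes deposited. The tissue came from C57BL/6J mice of 9 weeks, 24 hours after an injection of saline or of DOI, a psychedelic agonist of 5-HT2 serotonin receptors. Per the labels, all 4 samples expressed scFLARE2, with which light and high calcium together free tTA to switch on the reporter TRE-mCherry-p2a-bReaChES, and a female and a male sample stood in each of the DOI and Saline groups. Barcode endings separated 4 libraries that no file used here ties to a sample, so the matrix was read as 1 sample: no comparison of DOI with saline or of the sexes was made, and no p-value was computed.

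Somatostatin interneurons are inhibitory neurons of the cortex that come from the medial ganglionic eminence, as Pvalb interneurons do, while Vip and Lamp5 interneurons come mainly from the caudal ganglionic eminence. Many, such as Martinotti cells, send axons to superficial layers and inhibit the distal dendrites of pyramidal neurons, and their excitatory inputs facilitate. Somatostatin, the peptide that names them, acts on inhibitory G-protein-coupled receptors, and a rare long-range kind makes nitric oxide through Nos1.

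The members fell on libraries 1 to 4 as 87, 80, 28 and 105 nuclei, which were 8.59%, 9.71%, 6.64% and 13.4% of the nuclei meeting the GABAergic rule. Sst reached 686 CPM (UMIs per 1000000) over all members, 833, 723, 589 and 601 CPM in libraries 1 to 4. In every library this stood above the 30.2 to 92 CPM of the Pvalb set defined below. These values chose the members and are a description. The highest score was 2.38 and the median of members 1.30. Just inside the cut the score was 0.9806 and just outside it 0.9796, with 21 members and 32 other nuclei within 0.05 of it. Another 331 nuclei outside the 300 also scored highest for the Sst list, 111 of them among the 150 nuclei that came next in score. Among members, 298 scored highest for the Sst list out of 11 marker lists, 1 for oligodendrocyte and 1 for oligodendrocyte precursor markers. No UMI of Sst was found in 10 members and none of Gad1 or Gad2 in 34. A UMI of Slc17a7, a marker of excitatory neurons, was found in 139 members.

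**Figure D1:**
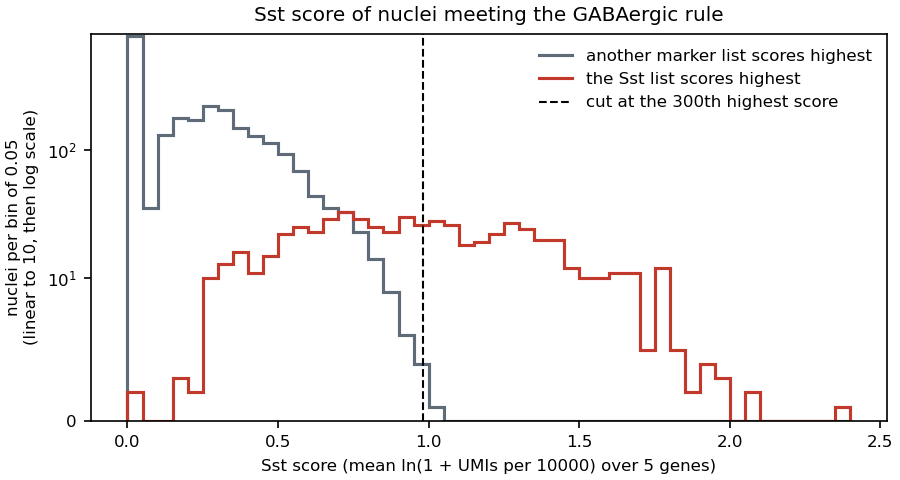
Sst score (x axis) of the 3044 nuclei meeting the GABAergic rule, counted in bins of 0.05 (y axis, linear to 10 and log above), for nuclei led by the Sst list (red) or by another marker list (grey). The dashed line marks the 300th highest score; 331 nuclei led by the Sst list lie left of it.

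Each score gene was also read in nuclei chosen without it, so that its own values did not pick these nuclei. The 5 genes were themselves chosen with earlier results of these data known, so these readings too are descriptions. Of the 300 nuclei chosen each time, 203 to 274 were members. Among 300 nuclei chosen on the other 4 genes, 249 of them members, Sst was at 555 CPM against 115 CPM in the other nuclei meeting the rule. Elfn1, which codes for a postsynaptic protein that sets facilitating release onto these cells, was at 166 against 27.8 CPM when left out. Crhbp, the corticotropin-releasing hormone binding protein, was at 55.6 against 12.8 CPM, Trhde at 963 against 232 CPM and Unc13c at 307 against 133 CPM. All 5 were higher in the chosen nuclei in each of the 4 libraries. Unc13c, a presynaptic priming factor, had the smallest ratio, at 1.21 on the log2 scale (95% interval 1.10 to 1.32).

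Members had a median of 9149.5 UMIs and 3404 genes each. Library totals over all barcodes ran from 19968985 to 57947155 UMIs. The median mitochondrial share of members differed by library, at 1.8%, 1.3%, 0.883% and 2.53%. RNA in droplets from other cells can add UMIs to any nucleus, so levels in other cell types are given beside low ones. Sst was at 49.2 CPM in 8049 excitatory nuclei and 143 CPM in 660 oligodendrocyte nuclei, and Slc17a7, which loads glutamate into vesicles, was at 71.4 CPM in members. Here and below, excitatory and oligodendrocyte nuclei were kept nuclei that failed the GABAergic rule and scored highest for that marker list. They thus had under 3 UMIs of Gad1, Gad2 and Erbb4 together. Another 918 nuclei led by oligodendrocyte markers met the rule and were not among the 660. A Sst UMI was present in 96.7% of members and in 41.7% of oligodendrocyte nuclei, whose median depth was 2736.5 UMIs. After thinning every nucleus to 1500 UMIs, which left out 1 member and 68 oligodendrocyte nuclei, these shares were 57.9% and 23.6%. No member UMI was found for 3 markers of other classes, Chat and Crispld2 of the Vip list and Adora2a of the striatal list. Summed over their 5 genes, the marker levels of other classes in members were 456 CPM for Pvalb, 71 for Vip, 44 for Lamp5 and 117 for striatal markers. They were 197 CPM for excitatory neuron, 208 for oligodendrocyte and 112 for microglia markers. The striatal sum was 19.5 CPM in the Pvalb set and 130 CPM in all other nuclei meeting the rule. The part of these marker levels in the results was not tested. Of the barcode sequences, 18 occurred in more than 1 library among kept nuclei, of which 1 was that of a member.

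For comparison, 300 nuclei with the highest Pvalb marker score, 149 with the highest Vip score and 79 with the highest Lamp5 score were taken from the other nuclei meeting the rule. Levels below are CPM of UMIs summed over a set. A gene was called higher or lower in members when it had at least 100 UMIs in both sets together, differed at least 2-fold and had the same sign in each of the 4 libraries, which is a rule of size and not a test. Intervals are 95% and cover counting error only. Over all genes, the share called higher was 4.78% against the Pvalb set (362 of 7577), 5.26% against the Vip set (321 of 6098) and 7.76% against the Lamp5 set (442 of 5697). The shares called lower were 4.26%, 4.05% and 5.37%. Of the genes in 18 lists of neuronal function, 46 were higher and 37 lower than in the Pvalb set among 239 measured, 47 and 40 of 230 against the Vip set, and 57 and 48 of 223 against the Lamp5 set. The lists hold Syt2 and Vip, which were in the scores that chose the Pvalb and Vip sets, so that choice shaped their calls there. A nucleus with fewer RNA molecules in all and one with fewer of a given gene are not told apart by CPM.

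Among peptide genes, Sst-like nuclei were higher in Npy and Cort. Npy, which codes for neuropeptide Y (chr6:49822710-49829507, plus strand), was at 235, 252, 215 and 193 CPM in libraries 1 to 4 of the members and at 64.8, 73.4, 37.3 and 76.8 CPM in those of the Pvalb set. The groups did not overlap, and the log2 ratio was 1.73 (95% interval 1.51 to 1.97). The Lamp5 set, which holds the neurogliaform cells that also make this peptide, was at 343 CPM, and members did not pass the rule against it. Cort (chr4:149125034-149126763, minus strand) codes for cortistatin, a peptide related to somatostatin, and was at 60.6, 50.7, 55.2 and 25.1 CPM by library in members. Its level was 16.3, 6.5 and 6.67 CPM in the Pvalb, Vip and Lamp5 sets, and it was called higher against each, with log2 ratios of 1.42, 2.75 and 2.71. Both were above the 101 and 11.7 CPM of oligodendrocyte nuclei. Pdyn, the precursor of dynorphin, was at 14.6 CPM in members and 1.92, 0.812 and 2.67 CPM in the Pvalb, Vip and Lamp5 sets, with too few UMIs to be called. Thinned to 1500 UMIs per nucleus, Cort had log2 ratios of 1.34, 2.80 and 0.57 against these sets, the last under 2-fold. The Lamp5 set held 5 Cort UMIs before thinning. With Erbb4 left out of the GABAergic rule the log2 ratio of Cort against the Pvalb set was 0.99, under 2-fold, and without library 1 or 2 Cort had under 100 UMIs against the Vip and Lamp5 sets, at 2.77 and 2.14 and at 2.41 and 3.40; without library 4 it was 3.65 against the Vip set.

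Tac1 was lower than in the Pvalb set, and Tac2 and Penk lower than in the Vip set. Tac1, the precursor of substance P, was at 11.1 CPM in members and 57.8 in the Pvalb set (log2 ratio -2.38, 95% interval -2.97 to -1.83), with libraries from 1.3 to 27.6 CPM in members. Tac2, which codes for neurokinin B, was at 5.89 against 77.2 CPM in the Vip set, and Penk, the enkephalin precursor, at 12.5 against 58.5 CPM. Both had under 100 UMIs once any library was left out, at log2 ratios of -4.33 to -3.32 for Tac2 and -2.60 to -1.99 for Penk. Cck, the cholecystokinin gene, was at 178 CPM in members, below the 377 CPM of oligodendrocyte nuclei, and was not called against any of the 3 sets. In all, 2 of 4 measured peptide genes were called higher and 1 lower against the Pvalb set, 2 and 3 of 6 against the Vip set, and 1 and 0 of 3 against the Lamp5 set. The peptide list holds Vip, a gene of the score that chose the Vip set, so that choice shaped the count there. Receptors for somatostatin itself were low everywhere: Sstr2, the most often read, was at 6.93 CPM in members, 7.66 in the Pvalb set and 12.8 in excitatory nuclei.

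Sst and Cort are shown by the 100 bases before their start sites (RefSeq, GRCm38.p6). Members were chosen on a score that holds Sst, so finding Cort and Sst in the same members follows largely from that choice. Shared control of these genes was not tested. The windows are chr16:23890845-23890944 and chr4:149126764-149126863, both on the minus strand. The capitals mark the cyclic AMP response element, TGACGTCA, or its shorter form CGTCA, searched on both strands. These are the letters to which the CREB factor binds, and the Sst promoter is the textbook example.
Sst: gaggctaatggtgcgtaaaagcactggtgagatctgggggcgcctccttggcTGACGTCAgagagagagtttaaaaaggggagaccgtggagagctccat
Cort: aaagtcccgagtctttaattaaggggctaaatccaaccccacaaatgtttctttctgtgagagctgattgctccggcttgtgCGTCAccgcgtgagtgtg
TGACGTCA began 48 bases before the Sst start site. Of 32851 RefSeq windows of this length, 1.15% held it. The Cort window held only the shorter form, which overlaps the full element by construction and was in 10.5% of windows. A match is a description of the letters and does not show a site in use.

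Transcription factors of the medial ganglionic eminence were higher in members than in the Vip and Lamp5 sets. Lhx6, the factor that specifies these interneurons, was at 87.2, 74, 61.3 and 51.2 CPM by library and at 59.4, 0.812 and 2.67 CPM in the Pvalb, Vip and Lamp5 sets. Sox6, which acts after Lhx6, was at 933, 879, 1030.1 and 991 CPM by library, against 889.6, 4.87 and 26.7 CPM in the Pvalb, Vip and Lamp5 sets. The members and the Pvalb set overlapped in their libraries for both, and both sets stood far above the Vip set. Satb1, a chromatin organiser needed for somatostatin cells to mature, was at 415 CPM and 262, 41.4 and 8.0 CPM in the Pvalb, Vip and Lamp5 sets. Its log2 ratio was 3.33 (95% interval 2.92 to 3.76) against the Vip set and 5.70 (95% interval 4.57 to 7.15) against the Lamp5 set. Without library 2 the log2 ratios against the Lamp5 set were 6.72 for Satb1, 6.17 for Sox6 and 4.04 for Lhx6, that of Lhx6 was 5.35 without library 4, and against the Vip set it was 5.75 without library 1.

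Prox1 and Nfib were lower than in both caudal-eminence sets. Prox1 was at 1.04 CPM in members, 221 in the Vip set and 161 in the Lamp5 set. Nfib was at 40.2 CPM, 426 in the Vip set and 1141 in the Lamp5 set. Prox1 had under 100 UMIs against the Lamp5 set without library 1, 2 or 4, at log2 ratios of -7.57, -7.29 and -7.29. A different group set members apart from the Pvalb set: Npas1, a bHLH-PAS repressor, was at 104, 76.6, 95 and 60.2 CPM by library against 3.24, 8.42, 3.55 and 8.04 CPM (log2 ratio 3.62, 95% interval 2.96 to 4.36). Its relative Npas3 was at 2433 against 852 CPM, and the HMG-box factor Tox at 462 against 60.4 CPM. Npas1 and Npas3 were not called against the Vip set, at 67.4 and 2971 CPM. Mef2c, an activity-regulated factor, was at 561 CPM against 1356 in the Pvalb set. Of these factors 3 of 19 measured were called higher and 1 lower against the Pvalb set, 9 and 3 of 19 against the Vip set, and 5 and 6 of 17 against the Lamp5 set.

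**Figure D2:**
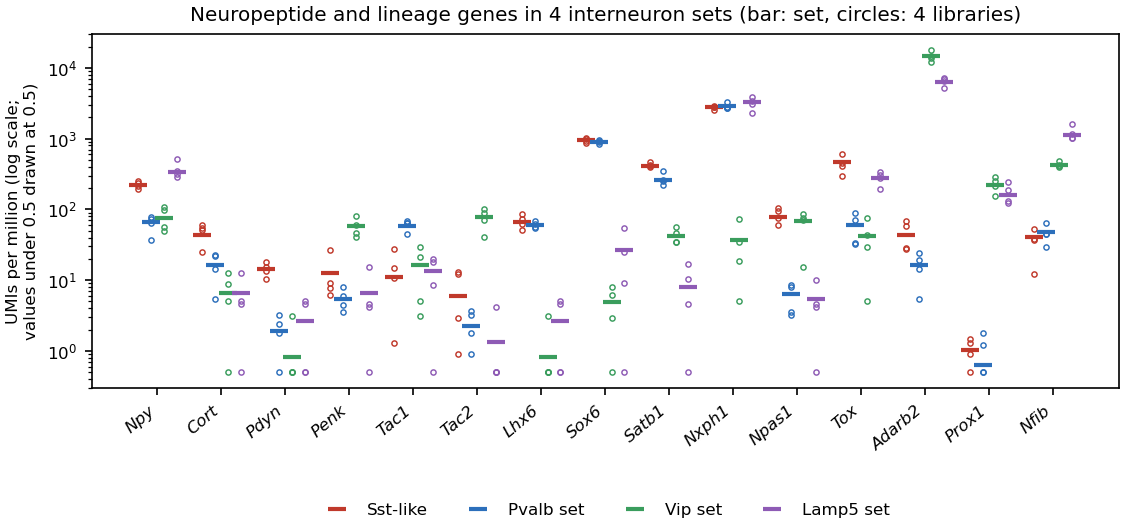
Level in CPM (y axis, log scale) of peptide and lineage genes (x axis) in the Sst-like nuclei and in the Pvalb, Vip and Lamp5 sets; bars are whole sets and circles their 4 libraries. Lhx6 and Sox6 lie together in Sst-like nuclei and the Pvalb set, while Npas1 is at 78.7 in Sst-like nuclei and 6.39 in the Pvalb set.

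Among glutamate receptor genes, Grin3a and Grik3 were higher in members than in each of the 3 other interneuron sets. Grin3a, an NMDA receptor subunit that lowers calcium entry (chr4:49661611-49845744, minus strand), was at 974, 1059.8, 855 and 1024 CPM by library, against 101, 78.8 and 149 CPM in the Pvalb, Vip and Lamp5 sets. Its log2 ratios were 3.31 (95% interval 3.15 to 3.49) and 3.67 (95% interval 3.38 to 3.98) against the Pvalb and Vip sets and 2.75 (95% interval 2.48 to 3.03) against the Lamp5 set. Ppp3r2, a gene on the same strand, lies within Grin3a. Grik3, a kainate receptor subunit, was at 364 CPM against 82.1, 55.2 and 17.3 CPM in the Pvalb, Vip and Lamp5 sets. Without library 2 the log2 ratio of Grik3 to the Lamp5 set was 5.24, against 4.39 with it.

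Grm7 was higher than in the Pvalb and Lamp5 sets and was not called against the Vip set. Grm7, a presynaptic group III receptor, was at 2269 CPM in members and 2356 in the Vip set, but 612 in the Pvalb and 303 in the Lamp5 set. Oligodendrocyte nuclei read 1242 CPM of Grm7, and the part of other cells' RNA in the member level was not tested. Grm8 was at 330.2 CPM, above the 42.8 of the Pvalb set and below the 1037 of the Vip set. Gria4, an AMPA receptor subunit of fast-spiking cells, was at 1085 CPM against 2208 in the Pvalb set (log2 ratio -1.03, 95% interval -1.09 to -0.96). Without library 2 it was at -0.97, with Erbb4 not counted at -0.93 and with 400 members at -0.995, each under 2-fold. The log2 ratio of Grm8 to the Lamp5 set was 2.95, and 3.56 without library 2. Counts were 3 higher and 0 lower of 5 metabotropic genes and 3 and 1 of 16 ionotropic genes against the Pvalb set. Against the Vip set they were 1 and 1 of 5 and 5 and 1 of 16, and against the Lamp5 set 4 and 0 of 5 and 4 and 2 of 16.

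Among GABA genes, 6 of 16 measured were lower than in the Pvalb set, all of them GABA-A receptor subunits, and Gabra2 was higher. Gabrb2, a beta subunit, was at 223, 232, 288 and 163 CPM by library against 497, 475, 495 and 477 CPM in the Pvalb set (log2 ratio -1.21, 95% interval -1.34 to -1.07). It was at 526 and 1107 CPM in the Vip and Lamp5 sets and was called lower against all 3 sets. Gabrg3 and Gabrd, which code for a gamma and the extrasynaptic delta subunit, were lower against the Pvalb set, at 732 against 2075 and 10.7 against 61.6 CPM. Gabra2 went the other way, at 259 against 48.2 CPM (log2 ratio 2.43, 95% interval 2.17 to 2.69). Gabra3, another alpha subunit, was at 131 CPM against 104, 55.2 and 48 CPM in the Pvalb, Vip and Lamp5 sets, higher against the Vip and Lamp5 sets. The list gave 1 higher and 6 lower of 16 measured against the Pvalb set, 1 and 2 of 14 against the Vip set, and 1 and 7 of 15 against the Lamp5 set. The median log2 ratio over it was -0.78 against the Pvalb set, beside 0.02 over all genes tested. With Erbb4 left out of the GABAergic rule, Gabrb2 was under 2-fold against the Pvalb and Vip sets, at -0.72 and -0.55. Thinned to 1500 UMIs, Gabra3 was under 2-fold against the Vip set, at 0.68, and at 1.94 against the Lamp5 set. In those of the same nuclei with at most 1% mitochondrial UMIs it was at 0.79 against the Vip set.

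Several potassium channel genes differed between members and the Pvalb set, which holds the fast-spiking cells. Kcnc1, which codes for Kv3.1 and serves fast repolarization, was at 112, 79.2, 107 and 90.7 CPM by library, well under the 474, 347, 383 and 307 CPM of the Pvalb set (log2 ratio -1.95, 95% interval -2.14 to -1.75). Kcna1, the Kv1.1 channel of axons, was at 74.5 against 222 CPM, and Kcnh7, an ERG-type channel, at 391 against 1588 CPM. The A-type channel genes Kcnd2 and Kcnd3 were higher than in the Pvalb set. Kcnd3 was at 359, 347, 356 and 352 CPM by library against 45.7 in the Pvalb set, and was not called against the Vip and Lamp5 sets, at 359.8 and 467 CPM. Kcnd2 was at 2892 against 1346, 829 and 1339.9 CPM in the Pvalb, Vip and Lamp5 sets. Kcnc2, which codes for Kv3.2, was at 2245 CPM, lying between the 4306 of the Pvalb set and the 723 and 321 of the Vip and Lamp5 sets. It was called higher against the Vip and Lamp5 sets and not called against the Pvalb set, at a log2 ratio of -0.94. Kcnn2, a calcium-gated SK channel, was at 103 CPM against 217, 637 and 952 CPM in the Pvalb, Vip and Lamp5 sets and was lower against each. Kcnq5, an M-current subunit, was at 402 CPM and at 2289.8 and 2077 in the Vip and Lamp5 sets. Against the Pvalb set, Kcnc2 passed 2-fold without library 1 (-1.01), while Kcnd2 was under it with 200 members (0.96) and Kcnn2 with 400 members or with Erbb4 not counted (-0.86 and -0.81). Against the Lamp5 set, Kcnd2 was at 0.96 without library 2.

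The alpha2delta subunit genes of calcium channels differed between the sets: Cacna2d3 was higher in members than in the Pvalb and Lamp5 sets, Cacna2d2 higher and Cacna2d1 lower than in the Vip and Lamp5 sets. Cacna2d3 was at 1232, 1231, 1208 and 1273 CPM by library against 118 in the Pvalb set, with a log2 ratio of 3.41 (95% interval 3.25 to 3.56). Lrtm1 lies on the opposite strand within it, and how the counting treated strand is not given in the sources used here. Cacna2d1, a gabapentin-binding subunit, was at 68.6 CPM in members and at 374 and 2214 in the Vip and Lamp5 sets. Cacna2d2 was at 141 CPM in members, 257 in the Pvalb set, 8.12 in the Vip set and 5.33 in the Lamp5 set. Trpc6, a receptor-operated cation channel, was at 389, 501, 386 and 325 CPM by library against 43.1, 168 and 14.7 CPM in the Pvalb, Vip and Lamp5 sets, higher against each. Cacna1e, the R-type channel, was at 403 against 79.5 CPM and Cacna1g, a T-type channel, at 42.6 against 9.26 CPM in the Pvalb set. Scn1a, which codes for the sodium channel Nav1.1, was at 214 against 487 CPM there. Cacna1g had under 100 UMIs without library 4, at a log2 ratio of 2.22. Cacna2d2 was at 5.02 against the Vip set without library 4, and at 4.11 with it.

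Counting both lists, 5 potassium, HCN and chloride channel genes were higher and 8 lower of 34 against the Pvalb set, and 8 sodium and calcium channel genes were higher and 3 lower of 26. Against the Vip set these were 9 and 7 of 33, and 2 and 3 of 24. Against the Lamp5 set they were 7 and 7 of 33, and 5 and 4 of 24.

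**Figure D3:**
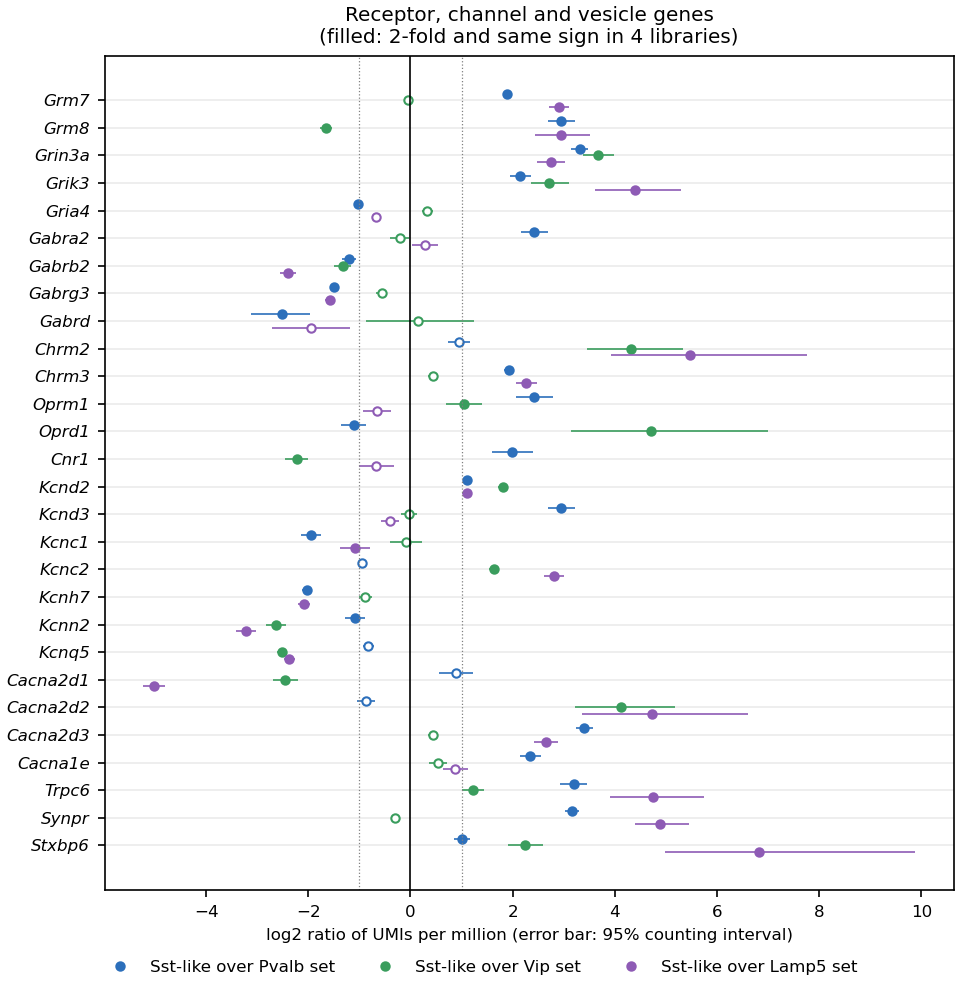
Log2 ratio of CPM in Sst-like nuclei over the Pvalb (blue), Vip (green) and Lamp5 (purple) sets (x axis) for receptor, channel and vesicle genes (y axis), with 95% counting intervals; filled points passed the size rule. Grin3a, Grik3 and Trpc6 are right of 0 in all 3 comparisons, Gabrb2 and Kcnn2 left of 0, and Oprd1 over the Lamp5 set is not drawn because that set had no UMI.

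At the presynapse, Synpr and Stxbp6 were higher in members. Synpr, the vesicle protein synaptoporin, was at 1295, 1289.7, 1156 and 1269 CPM by library, against 118, 147, 56.8 and 194 CPM in the Pvalb set and 42.7 in the Lamp5 set, with the Vip set at 1564 CPM. Stxbp6, a SNARE-binding protein, was at 304 CPM against 151, 64.2 and 2.67 CPM in the Pvalb, Vip and Lamp5 sets, higher against each. Cplx1, a complexin of fast release, was at 51.3 against 125 CPM in the Pvalb set. Syt2, the fast calcium sensor of that class and part of the score that chose it, was at 3.46 CPM in members. Of the core genes, Snap25 was at 836 against 676 and Syt1 at 3462 against 3088 CPM, neither called. Stxbp6 was close to the 2-fold limit against the Pvalb set, at 1.01 on the log2 scale, and under it without library 4 (0.98), with 200 members (0.84), 400 members (0.94), at least 1000 genes (0.999), the mean of the library ratios (0.98) or Erbb4 not counted (0.90, and 0.98 against the Vip set).

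Adhesion genes moved in both directions. Cdh9, a cadherin of specific synapses, was at 776, 526, 665 and 665 CPM by library against 185, 90.2 and 41.3 CPM in the Pvalb, Vip and Lamp5 sets, called higher against each. Cntn5, a contactin, was at 839 CPM against 3816, 2165 and 4619.6 CPM in the Pvalb, Vip and Lamp5 sets, and Clstn2, a calsyntenin, at 175 against 573, 465 and 507 CPM in the Pvalb, Vip and Lamp5 sets, both lower against each. With Erbb4 not counted Clstn2 was under 2-fold against each, at -0.94, -0.41 and -0.79, and with 400 members at -0.96 against the Vip set, while its log2 ratios of -1.71, -1.41 and -1.54 were, without library 4, -2.34, -2.07 and -2.13. Cntn5 was at -0.74 against the Vip set with Erbb4 not counted. Cntnap4 was at 243 CPM against 765 in the Pvalb set. Nxph1, a neurexin ligand, was shared with the Pvalb and Lamp5 sets, at 2765 CPM against 2884, 37.4 and 3317 CPM in the Pvalb, Vip and Lamp5 sets. Without library 2 its log2 ratio to the Vip set was 6.97, and 6.21 with it. In the matrix list, Bcan, which codes for brevican of the perineuronal net, was at 16.6 against 55.2 CPM in the Pvalb set, Col25a1 at 232 against 49.8 and Fstl5 at 456 against 134 CPM. The 30 members highest in Col25a1 held 86.4% of its UMIs. Outside the Nos1 subset given below, its level in members was less than 2-fold above that of the Pvalb set. Acan, the aggrecan gene, had 1 member UMI and 34 in the Pvalb set. Release, adhesion and matrix genes gave 3, 1 and 2 higher and 2, 4 and 2 lower of 23, 42 and 8 against the Pvalb set. The lower release genes include Syt2, which was in the score that chose that set. Against the Lamp5 set 16 adhesion genes were higher and 7 lower of 40, and against the Vip set 6 and 6 of 40.

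Of 6 serotonin receptor genes measured against the Pvalb set, Htr2a, Htr2c and Htr4 were lower in Sst-like nuclei and Htr7 was higher. Htr2a, the main target of DOI (chr14:74640840-74709494, plus strand), was at 32.5, 18.2, 30.7 and 26 CPM in libraries 1 to 4 of the members and at 76.1, 69.8, 62.1 and 78.6 CPM in those of the Pvalb set. The groups did not overlap, with a log2 ratio of -1.49 (95% interval -1.88 to -1.10). The Lamp5 set was at 107 CPM, the Vip set at 21.9 and excitatory nuclei at 43.2. A Htr2a UMI was found in 17.7% of members, 47.3% of the Pvalb set and 5.76% of oligodendrocyte nuclei, which should lack the gene. With every nucleus thinned to 1500 UMIs the shares were 5.02%, 11.1% and 2.53%. The CPM of oligodendrocyte nuclei, 23.4, was close to that of members.

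Htr2c, the Gq-coupled relative of Htr2a, was at 23.7, 55.8, 39.9 and 52.1 CPM by library in members, 93.9 in the Pvalb set, 335 in the Vip set and 65.9 in oligodendrocyte nuclei. Htr4, a Gs-coupled receptor, was at 6.58 CPM against 28.4 and 238 in the Pvalb and Vip sets, with 29.8 in oligodendrocyte nuclei. Against the Pvalb set, Htr2c was at -0.86 without library 1, -0.88 without likely doublets, -0.45 with 400 members and 0.04 with Erbb4 not counted, so its call and its direction rest on these choices. Htr4 had under 100 UMIs against the Pvalb set once a library was left out, at -3.16 to -1.53, and was at -0.93 with 400 members and -0.88 with Erbb4 not counted. Against the Vip set it was at -6.14 without library 4, and at -5.18 with it. Htr1f, a Gi-coupled receptor, was at 96 CPM against 348 in the Lamp5 set and 303 in excitatory nuclei. Htr2b was nearly level in every set, from 31.7 to 48 CPM over the 4 interneuron sets, and it overlaps Psmd1, a gene of every cell, on the opposite strand.

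Htr7, a Gs-coupled receptor, was at 29.6, 26, 30.7 and 14.4 CPM by library in members against 14.6, 9.63, 7.1 and 11.6 CPM in the Pvalb set, and the libraries of members and of that set overlapped slightly in range though each library was higher in members (log2 ratio 1.07, 95% interval 0.46 to 1.72). Oligodendrocyte nuclei were at 3.01 CPM and excitatory nuclei at 5.15, both below the members. A small subset of members with Nos1 UMIs, given below, held many of the Htr7 UMIs. The level in the other members was less than 2-fold above that of the Pvalb set. The Htr7 call ended without any 1 of the libraries, under 2-fold at 0.94 without library 2 and 0.91 without library 3, and with under 100 UMIs at 1.07 and 1.43 without libraries 1 and 4. It also ended with 200 and 400 members, at 0.90 and 0.74, and at 1.07 in members with a Gad1 or Gad2 UMI. The list had 1 higher and 3 lower of 6 measured against the Pvalb set, 0 and 2 of 6 against the Vip set and 0 and 2 of 4 against the Lamp5 set. Its median log2 ratio was -0.73, -0.23 and -1.14 in the 3 comparisons.

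**Figure D4:**
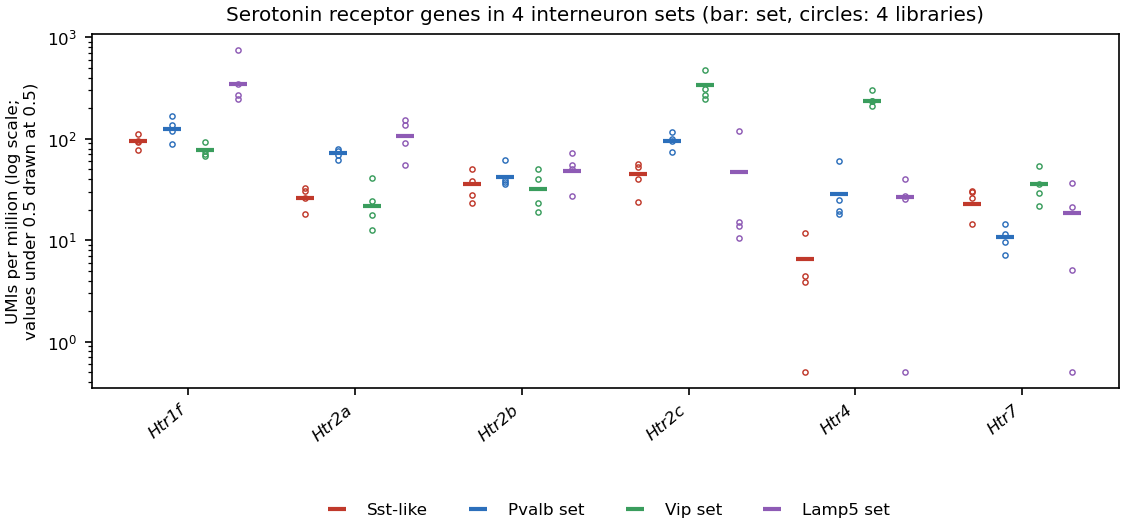
Level in CPM (y axis, log scale) of the 6 serotonin receptor genes measured (x axis) in the Sst-like nuclei and 3 other interneuron sets; bars are whole sets and circles their 4 libraries. Htr2a is at 26 in Sst-like nuclei and 72.8 in the Pvalb set, and Htr7 at 22.9 against 10.9.

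The muscarinic acetylcholine receptor genes Chrm3 and Chrm2 were higher in members, Chrm3 against the Pvalb and Lamp5 sets and Chrm2 against the Vip and Lamp5 sets. Chrm3, a Gq-coupled muscarinic receptor, was at 1129.8, 1266, 1109.8 and 1305 CPM by library against 359, 311, 288 and 331 CPM in the Pvalb set (log2 ratio 1.93, 95% interval 1.83 to 2.03) and 256 in the Lamp5 set. Chrm2, the Gi-coupled receptor, was at 178 CPM against 8.94 and 4.0 in the Vip and Lamp5 sets, and at 92.6 in the Pvalb set. The 30 members highest in Chrm2 held 75.5% of its UMIs, and the Nos1 subset given below was high in it. Opioid receptors divided: Oprm1, the mu receptor, was at 134 against 24.9 CPM in the Pvalb set, and Oprd1, the delta receptor, at 64.1 against 139. Oprd1 was at 2.44 CPM in the Vip set and had no UMI in the Lamp5 set. Oprm1 overlaps Ipcef1 on the opposite strand, and oligodendrocyte nuclei read 148 CPM of it. Cnr1, the CB1 cannabinoid receptor of Cck interneurons, was at 87.3 CPM, above the 22 of the Pvalb set and below the 408 of the Vip set. Adra1a, an adrenergic receptor, was at 102 against 219 CPM in the Pvalb set. With Erbb4 not counted Adra1a was at -0.85 and with 200 members Oprd1 at -0.96, both under 2-fold. Oprm1 was under 2-fold against the Vip set without library 1 or 2, at 0.97 and 0.70, with Erbb4 not counted at 0.67 and by the mean of the library ratios at 0.99. The log2 ratio of Oprd1 to the Vip set was 4.72, and 5.90 without library 4. That of Chrm2 to the Lamp5 set was 5.48, and 6.48 without library 2. Of these receptors 4 were higher and 2 lower of 10 against the Pvalb set, 3 and 3 of 9 against the Vip set, and 3 and 3 of 8 against the Lamp5 set.

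Activity-regulated genes were sparse in members. Fos had 38 member UMIs, 13.2 CPM, and Arc 15.6 CPM, neither above the 15.8 and 55 CPM of oligodendrocyte nuclei. Egr1 was at 48.5 CPM, 34.2 in the Pvalb set and 73.5 in oligodendrocyte nuclei. Only 3, 3 and 2 of 18 immediate early genes had enough UMIs against the Pvalb, Vip and Lamp5 sets. Nr4a1, an orphan nuclear receptor, was at 35.3 CPM, higher than 17.2 in the Pvalb set and lower than 103 in the Vip set. Among later genes, Vgf, a secreted granin, was at 125 against 62.3 CPM and Pcsk1, a prohormone convertase, at 33.6 against 9.26. Ntrk3, the neurotrophin-3 receptor, was at 256, 295, 313 and 202 CPM by library against 1022, 1318, 1301 and 1137 CPM in the Pvalb set. Against the Pvalb set, Nr4a1 was under 2-fold without library 1 or 4, at 0.97 and 0.78, and Vgf without library 3 or 4, at 0.95 and 0.996. Both were also under it with Erbb4 not counted, at 0.53 and 0.75, with doublets removed, at 0.99 and 0.97, and with at least 1000 genes per nucleus, at 0.99 and 0.98. Pcsk1 had under 100 UMIs without library 1, 2 or 4, at 2.01, 1.75 and 2.04. Nr3c2, the mineralocorticoid receptor, was at 91.1 CPM against 182, 689.6 and 379 CPM in the Pvalb, Vip and Lamp5 sets, lower against each. Its ratio to the Pvalb set, -1.0007 on the log2 scale, lay at the limit and was -0.92 without library 1 and -0.58 with Erbb4 not counted. Stress genes gave 0 higher and 1 lower of 7 against the Pvalb set, and later activity genes 3 and 2 of 11.

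Among called genes with at least 500 UMIs over members and the Pvalb set, the largest ratio was that of Trpm3, a steroid-gated cation channel, at 367, 373, 322 and 351 CPM by library in members against 9.72, 8.42, 7.1 and 8.93 CPM (log2 ratio 5.37, 95% interval 4.82 to 5.98). Arhgap6, a GTPase-activating protein, was at 273 against 15.3 CPM, Man1a, a mannosidase, at 358 against 20.4, and Pde1a, a phosphodiesterase, at 625 against 47.6. Reln, which codes for the secreted guidance protein reelin, was at 789.6, 769, 978 and 979.6 CPM by library against 58.3, 50.5, 26.6 and 97.3 CPM, and the Lamp5 set was higher still at 1913. On the lower side stood Cemip at 40.2 against 461 CPM, the axon repellent Slit2 at 65.5 against 613, and the factor Sox5 at 147 against 1071. Erbb4, the neuregulin receptor in the GABAergic rule, was itself at 1615 CPM in members and 12217 in the Pvalb set; the rule used it, so this is a description. Against the Vip set Adarb2, an RNA-editing family gene of the caudal eminence, was at 43.7 against 14907 CPM and Egfr at 2.77 against 414. Lypd6b, a Ly6-family protein, was at 251 CPM in members, 9.75 in the Vip set and without a UMI in the Lamp5 set, and Kctd8, a GABA-B receptor auxiliary protein, at 511 against 4.0 CPM there. Arhgap6 was at 5.24 without library 4 and Slit2 at -4.06 without library 1 against the Pvalb set, and Egfr at -8.45 without library 1 against the Vip set, against 4.15, -3.23 and -7.22 with all.

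The members were not uniform. For 2615 genes with at least 200 member UMIs, the spread between nuclei beyond counting error was taken as a squared coefficient of variation, whose median was 0.177. It was 0.135 for Grip1, a synaptic scaffold, 0.783 for Sst and 2.02 for Npy. Nos1, which codes for neuronal nitric oxide synthase, reached 13.7, and its 30 highest nuclei held 91.9% of its 296 UMIs. Col25a1, a membrane collagen, and Chrm2 were at 8.32 and 7.39. The subsets that follow were cut on single genes after their values had been seen, so their contrasts are descriptions, with the cut gene left out.

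The nuclei with at least 2 Nos1 UMIs numbered 23, or 6, 7, 3 and 7 by library (7.67% of members, exact 95% interval 4.92% to 11.3%). In them Npy was at 823, 1092, 447 and 549 CPM by library, and in the other 277 members at 187, 178, 167 and 165 CPM, without overlap. Tacr1, the substance P receptor, was at 341 against 3.79 CPM, and its 95 UMIs fell in 23 members in all. Chodl, known as the marker of long-range Sst cells, had 15 UMIs in the subset and 0 in the other members. Col25a1 was at 1784 against 85 CPM, Chrm2 at 1183 against 83.1 CPM and Crhbp at 229 against 60.7 CPM. Htr7 was at 116 against 14 CPM, so that 29 of the 66 member UMIs of this serotonin receptor came from 23 nuclei. Reln, Cdh9, Calb1 and Cort were lower, at 273 against 936 CPM, 213 against 696 CPM, 56.1 against 162 CPM and 8.02 against 47 CPM. Sst itself was at 642 against 691 CPM, a log2 ratio of -0.11 (95% interval -0.35 to 0.13). With the cut at 3 UMIs, 16 nuclei, Npy was at 990.3 against 175 CPM and Reln had no UMI, so the 68 Reln UMIs of the 23 came from the 7 nuclei with exactly 2. With 1 UMI or more, 54 nuclei, Npy was at 395 against 177 CPM.

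Nuclei with a UMI of Crhr2, a receptor for urocortins, numbered 32 and none was among the 23 Nos1 nuclei. Sst was at 1197, 1013, 808 and 1338 CPM by library in them and at 785, 693, 545 and 501 CPM in the other members, higher in each library. Cort was at 100.2 against 36.1 CPM, higher in 3 of 4 libraries, and Grm8 at 766 against 272 CPM, higher in 4. Unc13c was at 129.7 against 483 CPM and Tox at 206 against 496 CPM, lower in 4 of 4 libraries each. In the 63 members with a Cort UMI, Sst was at 1466, 981, 743 and 1137 CPM by library against 639, 640.4, 514 and 499 CPM in the other 237 members, and Crhr2 at 30.2 against 10.6 CPM. Sst and Unc13c were score genes, as were Crhbp and Trhde, and members were chosen on a mean that holds them, so the levels of these genes in a subset are shaped by that choice.

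Nr2f2, the nuclear receptor COUP-TFII, was found in 41 members. In these Pld5, a phospholipase D relative, was at 340.4, 490.1, 768 and 379 CPM by library against 128, 103, 107 and 107 CPM, Trhde, the ectoenzyme that degrades thyrotropin-releasing hormone, at 2195 against 1288 CPM (a score gene, as above), and Tox at 126 against 514 CPM. Col25a1 had no UMI in them and 669 in the other members. Hpse, which codes for heparanase, was found in 24 members, 12 of them in library 4. These had Tox at 1116 against 379.7 CPM, Pdyn at 43.6 against 10.9 CPM and the oxytocin receptor gene Oxtr at 24.9 against 5.85 CPM, the last from 8 UMIs, and Pld5 at 18.7 against 173 CPM. Of the 300 members, 106 fell in any of these 4 subsets, 13 in more than 1 and 194 in none. A UMI of Crhr2, Nr2f2 or Hpse was found in 10.7%, 13.7% and 8.0% of members and in 0.152%, 0.758% and 0.152% of the shallower oligodendrocyte nuclei. After thinning to 1500 UMIs the member shares were 2.68%, 4.01% and 1.67%. These are shares of nuclei with a UMI and not class sizes. Reln, present in 78% of members, was at 273 against 936 CPM in the Nos1 subset but 1113 against 842 CPM in the Nr2f2 and 1185 against 840.4 CPM in the Hpse subset.

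**Figure D5:**
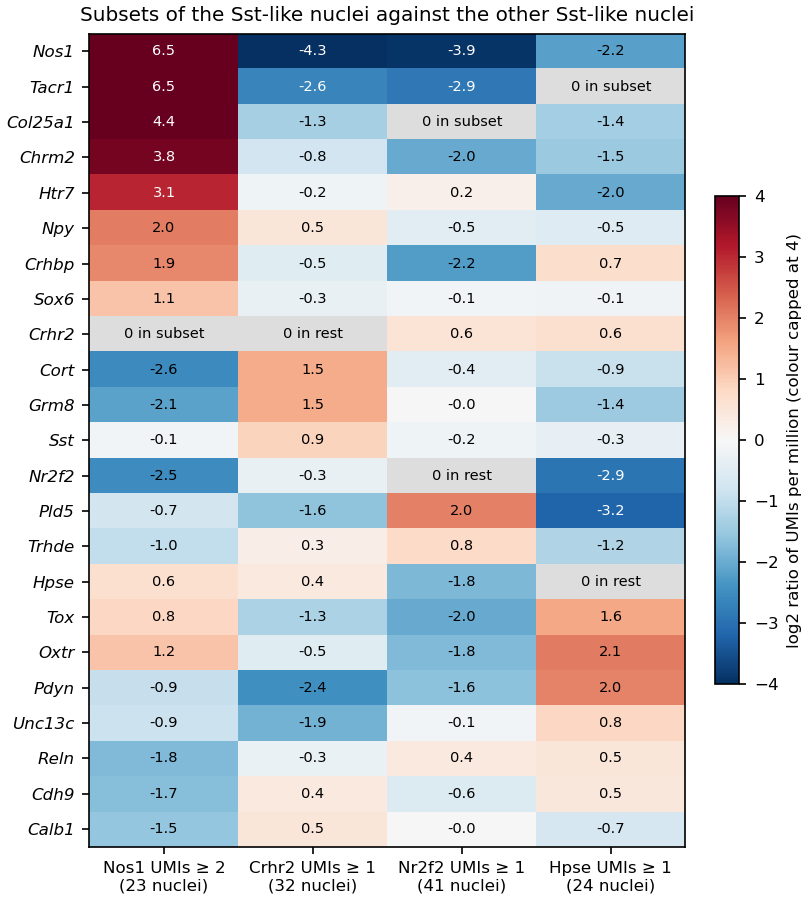
Log2 ratio of CPM in 4 subsets of Sst-like nuclei (columns) over the other Sst-like nuclei, for 23 genes (rows); colour is capped at 4 and grey marks a gene with no UMI on 1 side. The Nos1 column is high in Tacr1, Col25a1, Chrm2, Htr7, Npy and Crhbp, at 2.04 for Npy, and the other columns are high in other genes; each subset was cut on its own gene.

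The reporter was read in few members. A TREmcherry UMI was found in 7.67% (23 of 300, exact 95% interval 4.92% to 11.3%) of them. By library this was 0 of 87, 10 of 80, 3 of 28 and 10 of 105 nuclei, and a count of 0 of 87 allows a share of up to 3.45% by 3 counts of the total and up to 4.15% by the exact 95% interval. The Pvalb set was at 10.7% (32 of 300, exact 95% interval 7.41% to 14.7%), excitatory nuclei at 10% and oligodendrocyte nuclei at 6.67%. In excitatory nuclei library 1 was also low, at 4.86% against 13.6% in library 2. After thinning to 1500 UMIs the share of members was 1.34%, near the level of a single UMI, and that of oligodendrocyte nuclei 3.04%. The source of the reporter UMIs in oligodendrocyte nuclei was not tested. A tTA UMI was found in 3.67% of members.

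All 2744 other nuclei meeting the GABAergic rule were a mixed group by their markers: 918 scored highest for oligodendrocyte markers, 458 for Pvalb, 331 for Sst, 308 for excitatory neuron, 243 for oligodendrocyte precursor, 145 for Vip, 137 for striatal and 123 for Lamp5 markers. Against them 261 of 12618 genes (2.07%) were called higher in members and 1125 (8.92%) lower. Of 316 list genes measured, 33 were higher and 50 lower. Grin3a was at 1003 against 134 CPM, Reln at 879 against 191 and Npas1 at 78.7 against 20. The median library size of these nuclei was 5921.5 UMIs, against 9149.5 in members. The log2 ratio of Npas1 against them was 1.97. It was 0.83, under 2-fold, when members were re-chosen among nuclei with at most 1% mitochondrial UMIs.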

How the data were processed

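Single-nucleus RNA was counted in medial prefrontal cortex of 4 mouse samples. The authors deposited 1 matrix of UMI counts per gene and barcode, not normalized, made with Cell Ranger 7.1.0 on mm10 with TREmcherry and tTA added, per the submitters' processing notes and the file headers. How strand or intronic reads were counted is not given in the sources used here. No file used here ties the 4 barcode endings to samples, so the matrix was 1 sample, and differences between nuclei were given no test.

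A kept nucleus had 500 genes and 800 UMIs or more, with mitochondrial UMIs no higher than 5%. UMIs were summed per set and divided by the set's total (CPM). Intervals are exact at 95% (Poisson, binomial or Clopper-Pearson) and cover counting error only. Scrublet scores per library, with scanpy 1.11.5, were above 0.25 in 289 of 13270 kept nuclei, 7 of them members, and these were left out only in an alternative. The script was tested on simulated counts. Python 3.11.15, numpy 2.4.6 and scipy 1.17.1 were used. Of 489 features, 487 were matched by identifier to GENCODE M21 for positions.

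The members and gene lists were chosen with earlier results of these data known. A rule gave the genes open to naming, which per list were the score genes and at most 5 called genes per direction. It also took all serotonin receptors, peptide genes and somatostatin receptors with at least 50 UMIs in both sets together, and subtype genes with at least 30 member UMIs. Over all genes with at least 500 UMIs, the 10 largest and 10 smallest called ratios were added. The text names a selection of these genes and leaves out others. Outside this rule, and chosen after their values were seen, are Acan, Arc, Chodl, Crhr2, Egr1, Erbb4, Fos, Grip1, Oxtr, Snap25, Syt1, Sstr2 and Pdyn, Kcnc2 and Kcnn2 against the Pvalb set, Satb1 against the Vip set, and Kcnd2 and Oprd1 against the Lamp5 set, and the 4 subsets with their genes. Alternatives changed the number of members, the filters, the rule, the comparison nuclei, the depth, the UMI minimum, the weight of libraries and the libraries used. Some list genes are counted but not reported here by name.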

Additional observations from a re-analysis of the deposited data

How the results depend on the processing

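No paired analysis was possible because the libraries could not be tied to samples, DOI or saline. Members and the other sets share the 4 libraries, and with the mean of within-library ratios in place of pooled counts 48 list genes were higher and 38 lower than in the Pvalb set, 45 and 41 than in the Vip set and 58 and 46 than in the Lamp5 set. Against all other nuclei meeting the GABAergic rule, members re-chosen among nuclei with at most 1% mitochondrial UMIs gave 110 genes higher and 121 lower, and 15 and 4 list genes. Only 317 comparison nuclei were left there, and the Pvalb, Vip and Lamp5 sets fell to 126, 4 and 2 nuclei, so those comparisons were not run. An alternative added after seeing the data kept the same nuclei but only those with at most 1%, 64 of them members. It gave 152 and 498 genes, 30 list genes higher than in the Pvalb set, and 26 higher and 23 lower than in the Vip set, and the Lamp5 set had no nucleus left in library 4. Without Erbb4 in the rule 300 genes and 32 list genes were lower, and against the 3 class sets together 338 genes were lower. Thinned to 1500 UMIs, which leaves fewer UMIs under the same minimum, 26 and 17 list genes were called against the Pvalb set, 25 and 20 against the Vip set and 34 and 25 against the Lamp5 set, and 1.34% of members had a TREmcherry UMI. The level of Sst in nuclei chosen without it was 593 CPM with 200 members, 496 with 400, 166 with at most 1% mitochondrial UMIs and 481 with Erbb4 not counted. Leaving out a library gave 239 to 263 genes higher and 1009 to 1117 lower against all others, and 42 to 44 and 33 to 34 list genes against the Pvalb set. The TREmcherry share was then 5.91% to 10.8%. Of 138 gene ratios that passed the size rule, the direction reversed once under these settings, for Htr2c against the Pvalb set with Erbb4 not counted, at 0.042. Loss of the call with the direction kept was more frequent. Counted as pairs of gene and setting, it occurred 98 times against the Pvalb set, 44 against Vip and 16 against Lamp5. The outcome was the same in 693, 455 and 408 pairs. Among losses not given above, thinning left Oprd1 at -0.44 and Scn1a at -0.98 against the Pvalb set.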
